A study of Homo sapiens with 16 samples.

Results

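DBP, TEF, HLF and NFIL3 are the genes described here, taken with every peak that overlapped the gene body or the 5 kb to each side of it. Of 58586 peaks in 13 lists, 107 met this rule: 55 at DBP, 37 at TEF, 13 at HLF and 2 at NFIL3. The 4 genes are among 20037 protein-coding genes placed on a chromosome. The data are chromatin immunoprecipitation and sequencing (ChIP-seq) of BMAL1 in U2OS, a human osteosarcoma line labelled as wild type, and in U2OS-CHRONO, a line of the same cell type labelled U2OS-CHR. How U2OS-CHRONO was made, and whether it is 1 clone, is not given in the sources used here. Both lines received 200 nM dexamethasone, a steroid used to bring the clocks of cultured cells into phase, and were sampled every 4 h at times labelled 0, 4, 8, 12, 16 and 20 h, with the 0 h sample lying 4 h ahead of the reporter trough (luciferase under the BMAL1 promoter). A further library from U2OS-CHRONO, with no time or treatment label, used an antibody to Myc, and the series design names its target as Myc-CHRONO.

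DBP, TEF and HLF are the PAR bZIP factors, named for a proline and acidic amino acid rich region beside a basic leucine zipper, and they activate genes through the D-box. NFIL3, also called E4BP4, is a leucine zipper protein that binds the same element and represses it. BMAL1 pairs with CLOCK to activate genes from the E-box, and Dbp and Tef are known E-box genes of the clock, so the D-box arm lies downstream of the E-box arm. CHRONO is encoded by CIART and represses the activity of BMAL1 and CLOCK.

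The 250 bases before 4 gene starts are shown because peaks covered all 4 starts in at least 3 BMAL1 lists while only those of TEF held the E-box letters CACGTG, given in capitals. They are RefSeq sequences of GRCh38.p14, 5′ to 3′ on the strand of the gene: chr19:48637380-48637629 (minus strand) for DBP, chr22:41367205-41367454 and chr22:41381692-41381941 (plus strand) for the upstream and internal starts of TEF, and chr17:55264710-55264959 (plus strand) for HLF.
DBP: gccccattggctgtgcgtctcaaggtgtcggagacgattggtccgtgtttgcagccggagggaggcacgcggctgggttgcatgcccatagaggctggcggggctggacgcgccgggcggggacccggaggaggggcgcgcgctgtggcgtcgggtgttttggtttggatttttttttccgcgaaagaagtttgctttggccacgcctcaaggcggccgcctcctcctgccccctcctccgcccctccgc
TEF upstream start: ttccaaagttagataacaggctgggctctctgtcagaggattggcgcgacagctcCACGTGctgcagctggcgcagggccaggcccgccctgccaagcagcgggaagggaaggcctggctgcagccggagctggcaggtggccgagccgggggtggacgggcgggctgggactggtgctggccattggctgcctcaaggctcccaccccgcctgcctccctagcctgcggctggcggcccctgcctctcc
TEF internal start: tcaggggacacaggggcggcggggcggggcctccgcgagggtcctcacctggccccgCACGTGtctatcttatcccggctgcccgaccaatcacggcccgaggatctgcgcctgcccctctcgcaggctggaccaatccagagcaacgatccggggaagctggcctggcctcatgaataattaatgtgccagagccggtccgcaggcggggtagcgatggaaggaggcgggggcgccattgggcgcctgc
HLF: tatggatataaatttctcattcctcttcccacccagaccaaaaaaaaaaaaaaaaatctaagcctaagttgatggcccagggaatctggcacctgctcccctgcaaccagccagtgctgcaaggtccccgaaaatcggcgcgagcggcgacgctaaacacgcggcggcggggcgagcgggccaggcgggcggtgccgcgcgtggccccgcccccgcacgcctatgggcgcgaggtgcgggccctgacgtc

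CACGTG began 195 bases before the upstream TEF start and 193 bases before the internal one. The search covered both strands of windows from 250 bases before to 50 bases after each of the 7 starts of the 4 genes, for CACGTG, for CACGTT, and for the D-box forms TTATGTAA and TTACGTAA. None of the 4 contains another, though the end of CACGTT can overlap the beginning of TTATGTAA or TTACGTAA. No window of DBP, HLF or NFIL3 held any of the 4, which says nothing of sequence outside the windows. CACGTG was in 7.26% of 35116 promoters of this length, in 36 of the 72 that a peak touched in all 12 BMAL1 lists, and in 5.08% of the 30544 that no list touched. CACGTT was in 5.34%, TTATGTAA in 0.886% and TTACGTAA in 0.125% of all promoters.

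Each list holds 1 library's peaks with a score of the authors, and a rank of 1 is the highest score of a list. The BMAL1 lists held between 337 peaks (U2OS, 8 h) and 9391 (U2OS-CHRONO, 16 h), and the U2OS-CHRONO list was the longer at every time. The Myc list held 2487 peaks. Read depth is unknown, so deeper sequencing, better enrichment and more binding cannot be told apart in a longer list, and score sizes are compared only within a list. There was 1 library per line and time: times are pairs here, not replicates, and each p-value measures only the spread over these times. Of all protein-coding genes, 41.5% had a peak in their window in at least 1 BMAL1 list, 0.804% in all 12, and 9.8% in the Myc list. The share per BMAL1 list ran from 1.30% at 8 h in U2OS to 24.7% at 16 h in U2OS-CHRONO.

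BMAL1 peaks at the 4 genes differed in number of lists and in standing. DBP and TEF had peaks in all 12 BMAL1 lists, as 161 of the 20037 genes did, and their highest peak was among the 5 top-scoring of its list each time. HLF had a lower-ranked peak at 6 of 6 U2OS times and 4 of 6 U2OS-CHRONO times. NFIL3 had none in U2OS and 1 at each of 2 times in U2OS-CHRONO. Joining peaks that shared at least 1 bp gave 18 separate sites, of which 6 were at DBP, 8 at TEF, 3 at HLF and 1 at NFIL3. Sites in both lines numbered 5, sites in U2OS alone 4 and sites in U2OS-CHRONO alone 9. Most were sparse: 11 of the 18 rested on a peak in 1 BMAL1 list. The same shares over all regions were not counted, and every U2OS-CHRONO list was the longer of its pair. The 9 against 4, and the 11 of 18, are therefore not shown to be particular to these genes.

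DBP (chr19:48630030-48637379, minus strand) encodes the D-site binding protein, an activator. BMAL1 occupied it at 2 sites in every list of both lines. The start site region (chr19:48636066-48638914) covered the annotated start and gathered 29 peaks, and it reached into the neighbouring CA11, a carbonic anhydrase family gene, and the pseudogene SEC1P. Not all of the 29 lay over the start. Every BMAL1 list but that of U2OS at 8 h also had a lesser peak 480 to 1313 bp after it, scoring 54.5 to 297. Joining by 50% of the shorter peak set this peak apart and gave 8 sites at DBP. The inner region (chr19:48633383-48635762) lay inside the gene, 1617 to 3996 bp after the start, and gathered 22 peaks. Which exons or introns these regions fall in was not analysed here. The other 4 sites each held a single U2OS-CHRONO peak, at 0 h (scores 58.7 and 79.0) and 4 h (51.1 and 59.3), and the one with score 58.7 lay in SPHK2, the sphingosine kinase gene next to DBP.

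The peak over the DBP start scored 2531, 3192, 809, 1617, 2781 and 3100 in U2OS at 0, 4, 8, 12, 16 and 20 h, ranking 3, 2, 3, 3, 1 and 1. In U2OS-CHRONO it scored 2611, 3100, 1054, 1586, 2958 and 1989 and ranked 2, 2, 3, 2, 2 and 2. It was thus at or near the head of every list, whatever the list's length, and the top 0.890% at U2OS 8 h was its lowest standing. Its centre lay upstream of the start in every BMAL1 list, at a median position of -527 bp in U2OS and -553.5 bp in U2OS-CHRONO, outside the 250 bases shown above.

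**Figure D1:**
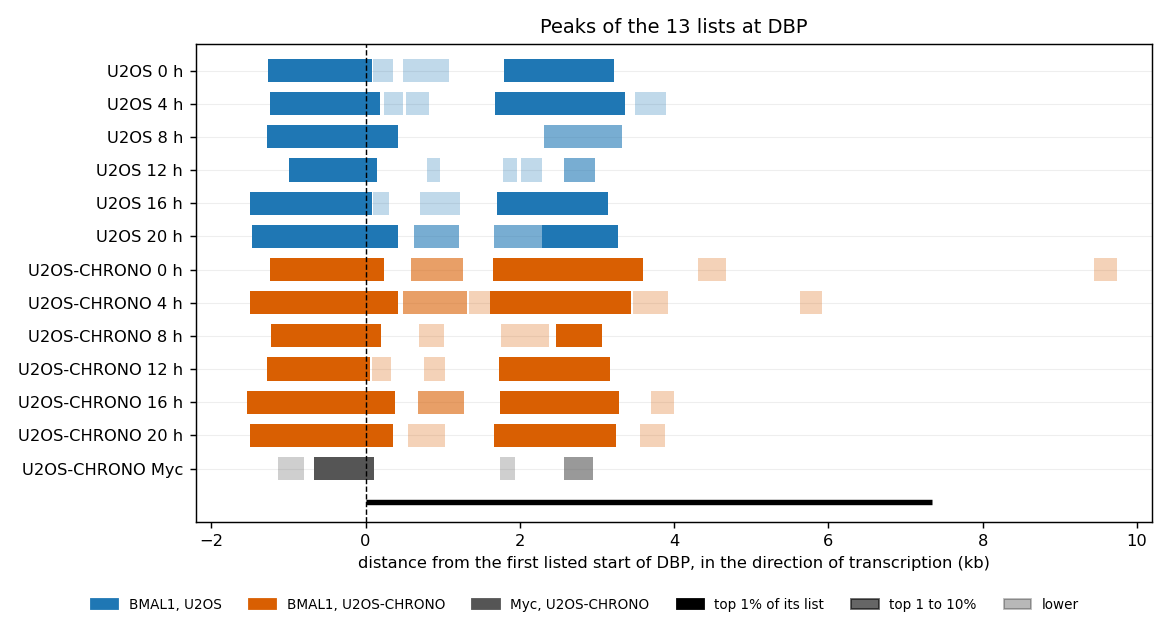
Peaks at DBP in the 13 lists, 1 row per library. The horizontal axis is the distance from the start in kb in the direction of transcription, the dashed line is the start, the black bar is the gene, colour gives antibody and line, and darker bars rank higher in their own list. Every row has a dark bar over the start, and a further bar near 2 to 3 kb inside the gene.

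The inner DBP region stood lower than the start region in every list, and less so in U2OS-CHRONO. Its highest peak scored 1079, 1399, 213, 451, 939 and 969.6 in U2OS at the 6 times, and 2225, 2726, 666.5, 1029, 2213 and 1168 in U2OS-CHRONO. As a percent of the score at the start in the same list, this was 42.6, 43.8, 26.3, 27.9, 33.8 and 31.3 in U2OS, and 85.2, 87.9, 63.2, 64.9, 74.8 and 58.7 in U2OS-CHRONO. The start scored 3100 at U2OS 20 h and U2OS-CHRONO 4 h, a value that recurs at the head of the lists. It is not the highest score given, since the start scored 3192 at U2OS 4 h. If 3100 is a fixed value given to several peaks, 31.3 and 87.9 are not exact. The 2 lines did not overlap in this percent. Of the 166 other regions with a peak in all 12 lists, set against the DBP start in the same way, 24.7% were higher in every U2OS-CHRONO list than in any U2OS list and 3.01% were lower, so this separation was common. The percent is a description and not a ratio of binding, since the score's definition is not stated.

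Ranks become comparable between lines when only regions with a peak in every BMAL1 list are ranked, of which there were 167. Among them the inner DBP region ranked 17, 16, 17, 21, 12 and 28 in U2OS and 5, 5, 9, 7, 4 and 6 in U2OS-CHRONO. The mean rank was 18.5 ± 5.47 (SD, n = 6 times) in U2OS and 6 ± 1.79 in U2OS-CHRONO, nearer the top at 6 of 6 times (difference -12.5 ± 5.21). The two-sided exact paired sign-flip permutation p was 0.03125, the smallest possible with 6 times. Adjusted by Benjamini-Hochberg over the 167 regions it was 0.0828, which misses 0.05. All 63 regions at the smallest p share this adjusted value, so it depends on their number and not on the region. Regions that moved nearer the top at every time made up 18.6% of the 167 and regions that moved away at every time 19.2%. A larger mean shift towards the top was seen in 60 regions. Regions lower in the order have more ranks to move through, so this count does not show how rare the shift was. The DBP start region had a mean rank of 2.17 in both lines (± 0.983 in U2OS, ± 0.408 in U2OS-CHRONO, SD, n = 6 times, exact permutation p = 1).

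The number of BMAL1 peaks in the DBP window was 4, 5, 2, 5, 4 and 4 in U2OS and 5, 6, 4, 4, 4 and 4 in U2OS-CHRONO. The mean difference of 0.5 ± 1.05 (SD, n = 6 times) was within the spread over times (exact paired permutation p = 0.5, adjusted p = 1 over 8307 genes), and with equal list sizes it was -0.833. It was 0.2 without 8 h and 0.8 without 12 h. The stretch of the window under peaks was 3640, 4072, 2699, 2182, 3756 and 4068 bp in U2OS and 4760, 5589, 2973, 3303, 4368 and 4250 bp in U2OS-CHRONO. It was longer in U2OS-CHRONO at 6 of 6 times, by 804 ± 532 bp (exact permutation p = 0.03125, adjusted p = 0.508). With equal list sizes the difference was 366 bp (exact permutation p = 0.1875). Among peaks scoring at least 100 it was 557 bp (exact permutation p = 0.125), and in the gene body alone 667 bp (exact permutation p = 0.03125). That direction was common, since 78.8% of all genes tested had more bp under peaks in U2OS-CHRONO and the median gene had 69.2 bp more. Neither quantity gave an adjusted call in any of the 8307 genes, and 115 genes for peak number and 474 for bp had an unadjusted exact p under 0.05. With 6 paired times, an adjusted value under 0.05 needs most of the 8307 genes to reach the smallest permutation p, 0.03125. The absence of a call therefore says nothing of a single gene.

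**Figure D2:**
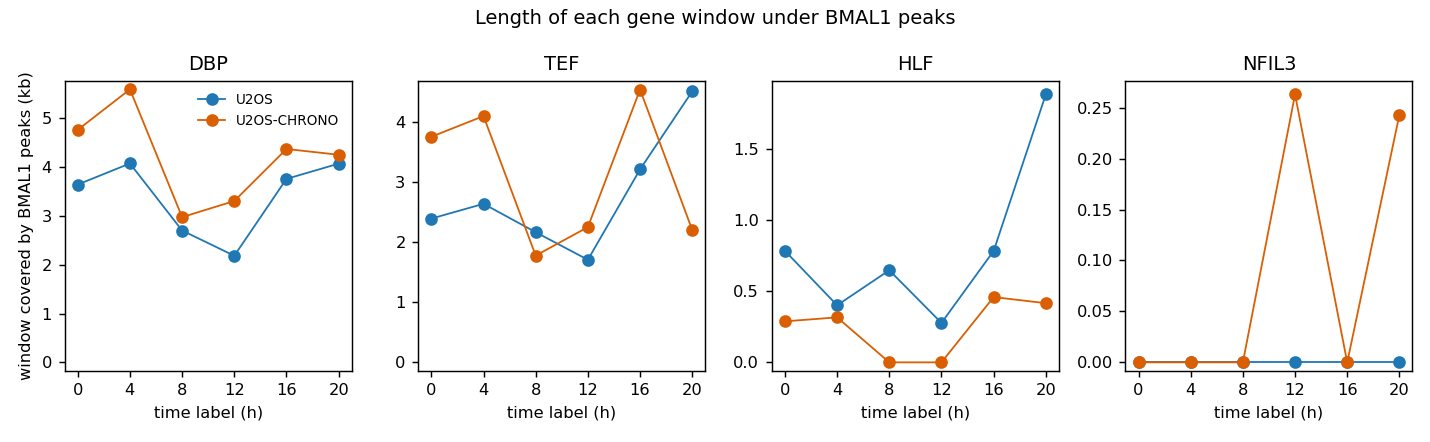
Length of each gene window under BMAL1 peaks in kb (vertical axis, its range differing between genes) against the time label in h, with 1 point per library. DBP lay higher in U2OS-CHRONO at all 6 times, HLF lay lower at all 6, TEF crossed, and NFIL3 left 0 only at 12 and 20 h in U2OS-CHRONO.

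TEF (chr22:41367455-41399326, plus strand) encodes thyrotroph embryonic factor, an activator. It has 2 annotated starts 14487 bp apart, and their BMAL1 peaks differed widely. The internal start (region chr22:41379876-41383730) had a peak in all 12 lists. That peak scored 2895, 3100, 933, 2046, 2656 and 3100 in U2OS, ranking 1, 3, 1, 1, 2 and 1. In U2OS-CHRONO it scored 2515, 3100, 1079, 1379.65, 2151 and 1756, ranking 3, 2, 2, 3, 5 and 3. The region overlaps the lncRNA LOC105373042, whose body 20 of the 37 TEF peaks overlapped, so these peaks cannot be given to 1 of the 2 genes by position.

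The upstream start (region chr22:41366965-41367573) had peaks at 0, 4 and 20 h in U2OS, scoring 93.1, 114 and 103, and at none of the other times. In U2OS-CHRONO it had a peak at every time, scoring 211, 281, 71.2, 57.3, 249.7 and 68.9 from 0 to 20 h. The U2OS lists without this peak, at 8, 12 and 16 h, were the shortest of that line (337, 1808 and 2794 peaks). Each U2OS-CHRONO list was longer than its U2OS pair. Whether list length accounts for 3 against 6 times was not tested. For whole gene windows, an excess in U2OS-CHRONO of at least 2 times was found in 14.5% of all genes. The same share over regions was not counted. The ranks of the upstream peaks lay between 636 and 4038, far below those of the internal start in the same lists. The U2OS-CHRONO peaks at 8 and 12 h ended 61 and 47 bp before the start. At the 3 times with a peak in both lines, 1327 regions were common to the 6 lists. The upstream start ranked 894, 947 and 969 among them in U2OS and 553, 598 and 1262 in U2OS-CHRONO, nearer the top at 2 times and farther at the third. The exact paired permutation p was 0.5 and 3 times allow none under 0.25.

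The CACGTG before each TEF start lay inside the peak there wherever there was one, and its place in the peak differed. At the upstream start it was inside the peak at 3 U2OS and 6 U2OS-CHRONO times, at a median of 34.5 and 22.75 bp from the peak's centre. At the internal start it was inside at 6 and 6 times, at a median of 453.5 and 535.75 bp from the centre. The upstream peaks were narrow (219 to 609 bp over both lines) and centred near this E-box, while the internal ones were broad (1355 to 2931 bp) and centred upstream of it.

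**Figure D3:**
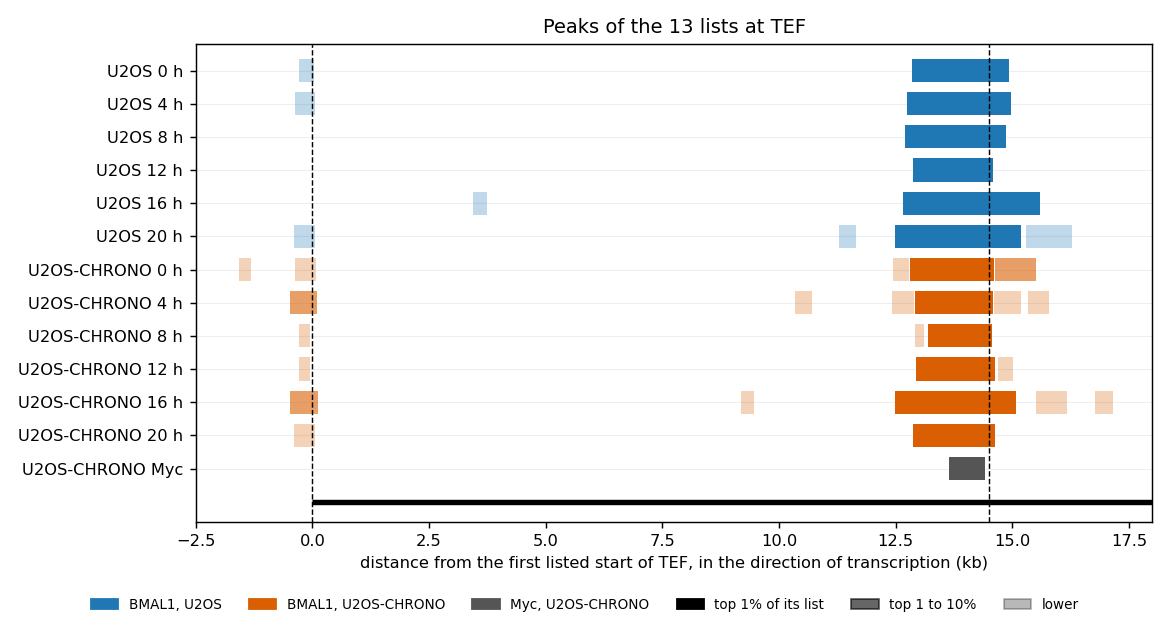
Peaks at TEF in the 13 lists, 1 row per library. The horizontal axis is the distance from the first start in kb in the direction of transcription, dashed lines are the 2 starts, the black bar is the part of the gene in view, and colour and darkness are as for DBP. The internal start has a dark bar in every BMAL1 row, and the dark bar of the Myc row ends just before it. Lighter bars lie at or just before the first start in 3 U2OS rows and all 6 U2OS-CHRONO rows of BMAL1.

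The highest TEF peak was narrower in U2OS-CHRONO at 6 of 6 times. It was 2089, 2224, 2168, 1709, 2931 and 2700 bp wide in U2OS and 1785, 1682, 1355, 1703, 2596 and 1757 bp in U2OS-CHRONO. The mean difference was -490.5 ± 348 bp (SD, n = 6 times, exact paired permutation p = 0.03125, adjusted p = 0.702 over the 161 genes with a peak in all 12 lists). Only 1.24% of those genes (2 of 161) were narrower at every time, and the median gene's highest peak was 46.3 bp wider in U2OS-CHRONO. In several U2OS-CHRONO lists other peaks flanked the main one, such as one of 894 bp at 0 h and one of 565 bp at 4 h. In U2OS at 20 h one of 995 bp did so. A signal called as 1 peak in one list and as several in another thus enters this width, and its part in the result was not tested. The whole TEF window, which holds other sites too, had more bp under peaks in U2OS-CHRONO at 4 times. For DBP the width difference was 145 ± 271 bp (exact permutation p = 0.25).

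The number of TEF peaks was 2, 2, 1, 1, 2 and 4 in U2OS and 5, 6, 3, 3, 5 and 2 in U2OS-CHRONO, higher at 5 times and lower at 20 h. The mean difference was 2 ± 2.10 (SD, n = 6 times, exact paired permutation p = 0.125, adjusted p = 1), and 0.5 with equal list sizes. The window had 2395, 2641, 2168, 1709, 3215 and 4515 bp under peaks in U2OS and 3758, 4103, 1779, 2253, 4545 and 2205 bp in U2OS-CHRONO, longer at 4 times and shorter at 2 (333 ± 1475 bp, exact permutation p = 0.594). Without 20 h the difference was 862 bp, and without 0, 4 or 16 h it was 127, 108 or 134 bp. In the gene body alone it was 98.5 bp. The mean rank of the internal start among the 167 common regions was 1.5 ± 0.837 in U2OS and 3 ± 1.10 in U2OS-CHRONO (SD, n = 6 times). It was farther from the top in U2OS-CHRONO at 5 of 6 times, and the exact paired permutation p of 0.09375 (adjusted 0.158) misses 0.05.

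Neither DBP nor TEF stood above the other in every list. The TEF peak outscored the DBP start peak at 3 U2OS times, DBP was higher at 2, and both shared the highest score of the list at 20 h. At U2OS 4 h DBP scored 3192 and TEF the recurring value 3100, so the order there is uncertain. In U2OS-CHRONO TEF was higher at 8 h, DBP at 4 times, and the scores tied at 4 h. The neighbours in this order therefore exchanged places within each line, while HLF ranked below both in every list where it had a peak.

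HLF (chr17:55264960-55325187, plus strand) encodes hepatic leukemia factor, an activator. Its start region (chr17:55264320-55265525) had a BMAL1 peak that scored 195, 301, 54.4, 138, 255 and 368 in U2OS from 0 to 20 h, ranking 350, 283, 248, 201, 156 and 201. In U2OS-CHRONO the peak scored 61.7 at 0 h, 57.0 at 4 h, 123 at 16 h and 80.5 at 20 h, ranking 3876, 6600, 2315 and 3191, with no peak at 8 and 12 h. The lists at 8 and 12 h were the shortest of U2OS-CHRONO (2429 and 3919 peaks). Scores of 54.4, 57.0 and 61.7 lay near 50, the lowest score of all lists, so the count of times rests partly on calls close to the limit. The U2OS peak stood in the top 3.34% to 11.1% of its list at 5 times and in the top 73.6% at 8 h, whose list held 337 peaks. The U2OS-CHRONO peak stood in the top 24.7% to 80.1%. Its centre lay at a median position of -41 bp from the start in U2OS and -25.75 bp in U2OS-CHRONO, within the bases shown above in every list but that of U2OS at 8 h.

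Among the 985 regions with a peak in both lines at 0, 4, 16 and 20 h, the HLF start ranked 329, 271, 150 and 192 in U2OS. In U2OS-CHRONO it ranked 960, 981, 872 and 918, near the foot of the same regions. The mean rank was 235.5 ± 80.0 (SD, n = 4 times) in U2OS and 932.75 ± 48.2 in U2OS-CHRONO, a difference of 697 ± 44.7, farther from the top at 4 of 4 times. Only 2 of the 985 regions had a larger mean shift away from the top, though regions lower in the order have less room to move away. Regions farther at every time made up 19.9% of the 985 and regions nearer at every time 21.1%. The exact paired permutation p was 0.125, the smallest that 4 times allow, and 0.305 after adjustment over the 985 regions, so no call was possible at this number of times.

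**Figure D4:**
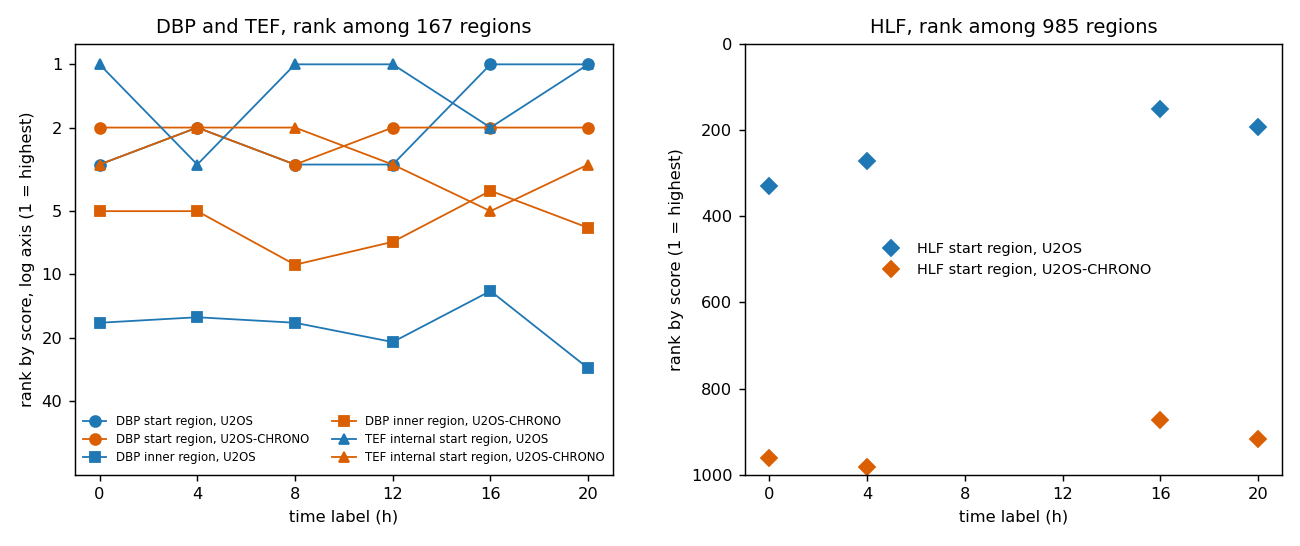
Rank by score among the regions shared by the compared BMAL1 lists, against the time label in h, with 1 point per library and rank 1 at the top. On the left (log axis, 167 regions) the inner DBP region lies nearer the top in U2OS-CHRONO at all 6 times, and on the right (linear axis, 985 regions) the HLF start lies between 150 and 329 in U2OS and between 872 and 981 in U2OS-CHRONO.

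HLF had 2, 1, 1, 1, 1 and 3 peaks in U2OS and 1, 1, 0, 0, 1 and 1 in U2OS-CHRONO. The mean difference was -0.833 ± 0.753 (SD, n = 6 times, lower at 4 times and equal at 2, exact paired permutation p = 0.125, adjusted p = 1). The other HLF peaks were U2OS peaks alone, at chr17:55266403-55266687 at 20 h (score 59.9) and at chr17:55285439-55285877 inside the gene at 0 h (106) and 20 h (68.2). The window had 786, 402, 649, 278, 785 and 1888 bp under peaks in U2OS and 289, 317, 0, 0, 460 and 417 bp in U2OS-CHRONO. It was shorter in U2OS-CHRONO at 6 of 6 times, by a mean of -551 ± 490 bp (exact permutation p = 0.03125, adjusted p = 0.508), and by -367 bp without 20 h. Of the 474 genes with an unadjusted exact p under 0.05 for this quantity, 465 were higher in U2OS-CHRONO and 9 lower. HLF was among the 9, and so were the clock repressors CRY1 and CRY2.

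A peak at 2 or more additional U2OS times, as at HLF, was seen in 1.49% of all genes and in 2.84% (5 of 176) of the genes with a peak at all 6 U2OS times. The opposite direction by as many times, as at NFIL3, was seen in 14.5% of all genes. With equal list sizes the HLF start kept its 6 U2OS times and had 2 in U2OS-CHRONO, and among peaks scoring at least 100 it had 5 and 1.

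NFIL3 (chr9:91409045-91483497, minus strand), the repressor of the D-box, had no BMAL1 peak in U2OS at any of the 6 times. Its only site (chr9:91433250-91433576) had a peak in U2OS-CHRONO at 12 h, scoring 50.4 and standing in the top 93.1% of that list, and at 20 h, scoring 59.3 in the top 75.1%. The lowest score of all lists was 50, so both lay just above the calling limit. The site lay at -8950 to -8624 bp from the first of the 2 listed starts, upstream of it but within the annotated gene body, and neither start had a peak in any list. The difference of 0.333 ± 0.516 peaks (SD, n = 6 times) had an exact paired permutation p of 0.5.

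**Figure D5:**
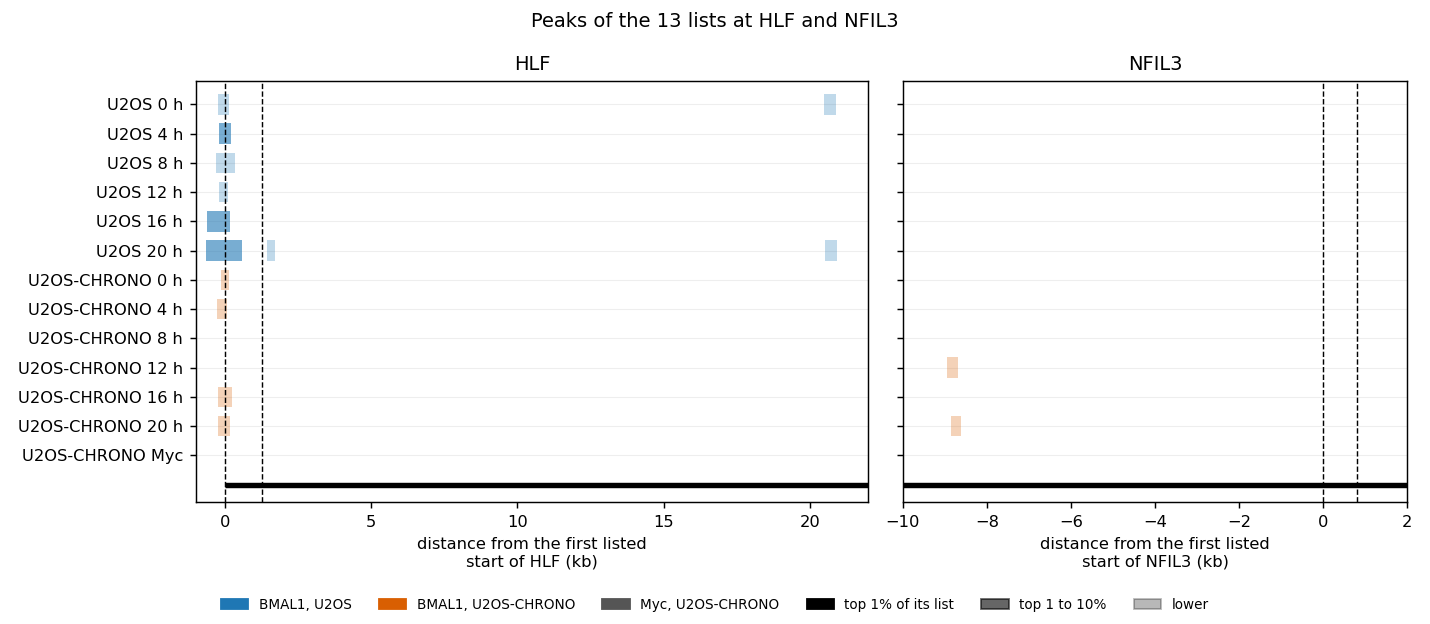
Peaks at HLF (left) and NFIL3 (right) in the 13 lists, 1 row per library. The horizontal axis is the distance from the first listed start in kb, dashed lines are starts, black bars are the annotated gene bodies in view, and colour and darkness are as for DBP. HLF has a bar at the start in 6 U2OS and 4 U2OS-CHRONO rows, and NFIL3 has 2 pale bars upstream of its listed starts.

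The Myc library, directed at Myc-CHRONO, had 4 peaks at DBP, 1 at TEF and none at HLF or NFIL3. Of the 1963 genes with a Myc peak, 11.2% had 2 or more and 0.306% (6 genes) had 4 or more. The peak at the DBP start (chr19:48637270-48638051) and that at the internal TEF start (chr22:41381090-41381866) had the same score, 477, and shared rank 5 of 2487. The inner DBP region had a Myc peak of score 239 (rank 25) and a lesser one of 61.9 (rank 1011), and the start region had a further one of 77.7 (rank 504). The upstream TEF start had no Myc peak.

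Each Myc peak overlapped BMAL1 peaks by at least 1 bp at 6 of 6 times in both lines, except the one of score 61.9, which did so at 5 U2OS times. The Myc peak of 374 bp in the inner DBP region lay wholly inside the BMAL1 peak at 6 of 6 times of each line, with centres a median of 151 bp apart in U2OS and 243 bp in U2OS-CHRONO. At the DBP start the Myc peak of 782 bp had its centre a median of 246 bp from that of BMAL1 in U2OS and 272 bp in U2OS-CHRONO. The TEF Myc peak of 777 bp lay inside the BMAL1 peak at all 12 libraries' times and held the CACGTG before the internal start, 273.5 bp from its centre. No test was made, since there was 1 Myc library. The share of all Myc peaks that overlap a BMAL1 peak was not counted. The overlap is therefore not shown to be particular to DBP and TEF.

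Of 16 other clock genes, 8 had a window peak in all 12 BMAL1 lists like DBP and TEF: PER1, PER2, PER3, CRY1, CRY2, NR1D1, NR1D2 and BHLHE40, which are repressors of the clock. Not every repressor did: CIART, which encodes CHRONO, had one in 9 lists, and BHLHE41, the partner gene of BHLHE40, in 11. RORB alone had none. CIART, the gene of CHRONO, was the only one of the 16 with peaks at more U2OS times than U2OS-CHRONO times (5 against 4), as HLF had (6 against 4), while 3 had more in U2OS-CHRONO and 12 were equal. A Myc peak was found at 11 of the 16. The number of peaks was higher in U2OS-CHRONO for 8, lower for 5 and equal for 3. An unadjusted exact permutation p under 0.05 was reached by CRY2, lower at 6 of 6 times, and BHLHE40, higher at 6 of 6 (adjusted p = 1 for each). The median difference over the 16 was 0.0833 peaks, beside 0.167 over all 8307 genes tested. In bp under peaks, CRY1 and CRY2 were the clock genes lower in U2OS-CHRONO at 6 of 6 times, as HLF was. The mean difference was -628 ± 419 bp for CRY1 and -1993 ± 1258 bp for CRY2 (SD, n = 6 times, exact permutation p = 0.03125 and adjusted p = 0.508 for each), and none of the 16 was higher at 6 of 6.

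The genes most like each member were found by the mean absolute difference in the within-list percentile of the highest window peak over the 13 lists, a list without a peak counting as 0. For DBP these were NR1D1 (0.0572 percentile points), PER1 and VAMP2 (0.109 each). For TEF they were PER1 and VAMP2 (0.101 each) and NR1D1 (0.115). PER1 and VAMP2 are neighbours that shared a peak and so the same value. For HLF the nearest were SNX29 (8.26 points) and DCPH1 and RMND1 (9.25 each). Since DBP and TEF stood near the top of every list, a gene near the top lies within a small distance of them, and these distances cannot be set against those of HLF.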

How the data were processed

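The files were 13 peak lists, 1 per immunoprecipitated library, in hg38 coordinates per the submitters' processing notes, which name MACS 1.4.2, bedtools and HOMER 4.10.3 without their roles. Peaks were taken as called per library. No source used here gives the aligner, the read depth or the control, and the 3 input libraries were not analysed here. The score is the authors' value as deposited, its definition not stated, and was used only within a list. Some top peaks share the value 3100 while others score higher, so ties at this value and the order around it may not be exact.

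Genes and starts came from RefSeq tables of GRCh38.p14, and all 4 genes matched a promoter. Windows reached 5 kb beyond either end of a gene, and overlap was at least 1 bp. Line differences were tested over the 6 times by exact permutation (paired sign flips, two-sided), adjusted by Benjamini-Hochberg over all genes or regions tested. The planned width test of a site needed exactly 1 peak at 5 or more shared times, which no site had. Bp under peaks, the width of the highest peak, scores as a percent of the DBP start and ranks among common regions were added after seeing the data, as was the choice of times for the common regions. A common region joins overlapping BMAL1 peaks and has a peak in every list compared.

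The members and lists were chosen with earlier results of these data known. Genes named are the 4 members, for each member with peaks in 6 or more BMAL1 lists the 3 genes most alike that share no peak with a member, neighbours holding a member's peak, and clock genes that a count singles out. Alternatives were the gene body alone, 10 kb to each side, only peaks scoring 100 or more, lists of equal size (both lines keep as many top peaks as the shorter list), no pairing, each time left out, and joining or overlap by 50% of the shorter peak or by centres no more than 500 bp apart. Counts per window matched bedtools 2.31.1 in 13 of 13 lists, and the tests were checked on simulated data. Python 3.11.15, NumPy 2.4.6, pandas 2.3.3, SciPy 1.17.1 and matplotlib 3.10.9 were used.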

Additional observations from a re-analysis of the deposited data

How the results depend on the processing

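Of 167 alternative values over 33 results, 152 kept their direction and side of the threshold or moved within the limit set for counts, 9 moved beyond it, 3 reversed and 3 came to 0. No line difference of a member passed an adjusted 0.05 under any setting run. With the times paired, a call needed most genes or regions to reach the smallest possible p. Its absence there says nothing of a single member. Among peaks scoring at least 100, the line difference in peak number was 0 for DBP and 0 for NFIL3, and NFIL3 had 0 bp of difference under peaks. The TEF difference in bp under peaks was then -178. At that score HLF had peaks at 5 U2OS times and 1 U2OS-CHRONO time, NFIL3 at 0, and the sites numbered 3 at DBP, 2 at TEF and 0 at NFIL3. With equal list sizes the DBP difference in peak number was -0.833 and the TEF difference in bp was -164.5, HLF had 2 and NFIL3 had 1 U2OS-CHRONO time, and the median standing of the highest TEF peak in U2OS-CHRONO was the top 0.127%. The cause of these changes was not tested, beyond the fewer peaks that both settings keep. The inner DBP rank difference lay between -13.4 and -10.6 with each time left out, and the HLF one between 710 and 1001, over 1012 to 1327 regions. Leaving out 1 of 6 times allows no p under 0.0625, and leaving out 1 of the 4 HLF times none under 0.25.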

Other observations

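Beyond the 5 kb limit, 2 further sites lay 5 to 10 kb from DBP on the side of its start, toward CA11 and SEC1P. The site chr19:48644772-48645235 had BMAL1 peaks in 2 U2OS lists and 2 U2OS-CHRONO lists, scoring 63.4 to 86.3. The site chr19:48646142-48646885 had peaks in 2 U2OS lists and 4 U2OS-CHRONO lists, scoring 52.7 to 194. Neither had a Myc peak. Which gene they belong to was not tested.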
